A study of Homo sapiens with 12 samples.

Results

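The Kruppel-like factors (KLF) are transcription factors that bind GC-rich and CACCC-containing DNA through zinc fingers at their C-terminal end. The 10 members described here are KLF2, KLF3, KLF4, KLF5, KLF6, KLF7, KLF9, KLF10, KLF11 and KLF13. They were chosen by symbol, with earlier results of these data known, and matched to the Ensembl gene IDs of a table of 60671 genes. All 10 were among the 18219 genes that passed the filter on low counts. In the gut epithelium KLF4 is known for differentiated cells of the upper crypt and surface and for goblet cell formation in mouse colon, whereas KLF5 is known for dividing cells of the crypt. The pair is often described as acting in opposite directions on epithelial growth.

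Gene expression was measured by RNA sequencing in LS180, a long-established human line from a mucin-secreting colorectal cancer, in 6 groups of 2 libraries. The transcription factor SOX9 is known in the gut from stem, progenitor and Paneth cells. The groups were the line with V5-tagged wild-type SOX9 with and without doxycycline, the line with V5-tagged M303, a shortened SOX9, with and without doxycycline, and the control line with GFP with and without doxycycline. Doxycycline, which switches the construct on, was given at 0.5 µg/ml for 24 h. All groups carry the endogenous SOX9 gene, and each pair of groups carries 1 construct, so a construct and the cells that carry it cannot be told apart. Whether a line was a clone is not given in the sources used here. Levels are given as CPM, the deposited read count of a gene scaled to a common library total with TMM normalization, and a gene was called at an adjusted p under 0.05 in edgeR.

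Totals ranged from 31012775 to 48529770 counts per library. SOX9 itself stood at 712 and 761 CPM in the induced SOX9 line, against 357 and 381 CPM in the uninduced SOX9 line. It stood at 818 and 867 CPM in the induced M303 line, against 399 and 367 CPM in the uninduced M303 line, and between 371 and 405 CPM in the 4 libraries of the GFP line. These counts pool endogenous and construct transcripts. The 6 epithelial markers checked (EPCAM, CDH1, KRT8, KRT18, VIL1 and CDX2) summed to 8880 to 8910 CPM in the induced SOX9 libraries and 9110 to 10500 CPM in the uninduced SOX9 libraries. Of them, CDX2 (log2 fold change -0.46, adjusted p = 0.00418) and VIL1 (-0.28, adjusted p = 0.0446) fell on SOX9 induction. Leaving out replicate 2 of uninduced SOX9 ended both calls, with adjusted p of 0.111 for CDX2 and 0.409 for VIL1, and so did leaving out replicate 1 of induced SOX9, with 0.0777 and 0.303. VIL1 also lost its call on removal of replicate 2 of induced SOX9 (0.239) or of a single library among the 4 of M303 (up to 0.0641), with the replicate number as a block (0.0832) and in a non-robust fit (0.0519). The 5 fibroblast, 4 blood and 4 endothelial markers checked each stayed under 1 CPM in every library. The fibroblast markers summed to 1.36 to 1.54 CPM in the induced SOX9 libraries and 0.675 to 0.856 CPM in the uninduced SOX9 libraries, and the part of these markers in the results was not tested.

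KLF4 fell on induction of wild-type SOX9 and KLF5 was not called, so the promoter windows of these 2 genes are shown for the letters they hold. Each window runs from 250 bases before to 50 bases after a RefSeq transcript start (GRCh38.p14). Capitals mark the GC box GGCGGG, a letter run that KLF and SP proteins are known to bind, and the SOX core ACAAT, both searched on both strands. The KLF4 window is chr9:107489720-107490019 on the minus strand, and its start lies 713 bases inside the Ensembl gene. The upstream KLF5 window is chr13:73054726-73055025 and the downstream one is chr13:73058755-73059054, both on the plus strand.
KLF4: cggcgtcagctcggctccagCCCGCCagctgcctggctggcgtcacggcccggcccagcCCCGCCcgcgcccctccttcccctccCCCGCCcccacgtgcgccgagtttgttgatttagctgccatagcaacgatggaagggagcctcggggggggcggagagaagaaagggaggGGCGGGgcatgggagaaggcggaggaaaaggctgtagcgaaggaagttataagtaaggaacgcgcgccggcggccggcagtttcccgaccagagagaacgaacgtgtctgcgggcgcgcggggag
KLF5, upstream start: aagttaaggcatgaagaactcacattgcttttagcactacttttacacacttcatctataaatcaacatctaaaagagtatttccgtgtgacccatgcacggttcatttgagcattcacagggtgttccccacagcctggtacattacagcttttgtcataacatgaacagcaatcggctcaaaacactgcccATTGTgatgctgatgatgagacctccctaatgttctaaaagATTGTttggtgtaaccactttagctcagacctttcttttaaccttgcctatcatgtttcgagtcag
KLF5, downstream start: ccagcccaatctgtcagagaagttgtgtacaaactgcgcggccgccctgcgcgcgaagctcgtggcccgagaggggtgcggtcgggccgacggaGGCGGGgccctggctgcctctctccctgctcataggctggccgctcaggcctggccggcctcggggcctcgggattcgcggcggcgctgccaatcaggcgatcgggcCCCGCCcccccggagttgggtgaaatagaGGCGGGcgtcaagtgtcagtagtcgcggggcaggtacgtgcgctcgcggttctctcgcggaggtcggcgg
The KLF4 window held 4 GC boxes and 0 SOX cores. The upstream KLF5 window held 0 GC boxes and 2 SOX cores, and the downstream one 3 GC boxes and 0 SOX cores. Over all 35116 RefSeq promoter windows of this length, 45.0% held a GC box and 27.4% held a SOX core. Member windows were taken from all chromosomes but 8, which carries KLF10, while the shares over all windows left out no chromosome. This gave 13 windows from 8 members. Of the 13, 8 held a GC box, 5 a SOX core, and 7 the KLF box CACCC, which 59.9% of all windows held. The longer SOX run ACAATG, which contains the SOX core, was in 3 of the 13 windows and 10.8% of all windows, and TATAAA in 1 and 11.5%. GC content ranged from 32.7% at KLF9 to 80.7% at KLF2, against a median of 58.7% over all windows. These matches describe letters and not binding.

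KLF4 (ENSG00000136826, GRCh38 chromosome 9, 107484852 to 107490482, minus strand) had 30.0 and 29.3 CPM in the induced SOX9 libraries, against 50.9 and 49.6 CPM in the uninduced SOX9 libraries. In the other lines it had 40.6 and 45.7 CPM in induced M303, 52.8 and 46.3 CPM in uninduced M303, 46.0 and 47.4 CPM in induced GFP, and 49.1 and 52.8 CPM in uninduced GFP. Both induced SOX9 libraries lay below all other 10 libraries, whose lowest was a library of induced M303. KLF4 fell to 0.590 of its uninduced level in the SOX9 line (95% CI 0.513 to 0.678), a log2 change of -0.76 (SE 0.10, adjusted p = 4.04e-05 in edgeR). Of the 10 members it was the only one called in edgeR for this comparison, in which 1.16% of all genes tested were called lower, 1.81% higher and 2.97% in either direction. By unadjusted p it stood at rank 71 of 18219 genes. In bulk RNA, fewer cells with KLF4 and less KLF4 RNA per cell cannot be told apart.

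On M303 induction KLF4 averaged 43.1 ± 3.62 CPM with and 49.5 ± 4.59 CPM without doxycycline (SD, n = 2 each), and on GFP induction 46.7 ± 1.00 CPM with and 51.0 ± 2.58 CPM without (SD, n = 2 each). The log2 fold changes were -0.20 (SE 0.10, unadjusted p = 0.0505) for M303 and -0.13 (SE 0.10, unadjusted p = 0.206) for GFP in the edgeR fit, and both had an adjusted p = 1.00. In each of the 3 lines the KLF4 values with doxycycline lay below those without, but only the change with wild-type SOX9 was called. Groups did not overlap for 44.7% of all genes with SOX9, 33.8% with M303 and 27.4% with GFP. The SOX9 change minus the GFP change was -0.64 on the log2 scale (SE 0.14, 95% CI -0.92 to -0.35, adjusted p = 0.0212), where 0.895% of all genes were called, 0.631% higher and 0.263% lower. This call was lost on leaving out any 1 of 5 libraries, namely either induced SOX9 library, replicate 1 of uninduced SOX9, replicate 2 of induced GFP or replicate 1 of uninduced GFP, with adjusted p of 0.0588 to 0.120. The SOX9 change minus the M303 change was -0.56 (SE 0.14, 95% CI -0.85 to -0.28), which was not called (adjusted p = 0.0876, with 0.489% of all genes called, 0.357% higher and 0.132% lower). DESeq2 called that difference (-0.57, adjusted p = 0.0213), as did edgeR with no filter on low counts (-0.57, adjusted p = 0.0293). The M303 change minus the GFP change was -0.07 (95% CI -0.36 to 0.21, adjusted p = 0.992).

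KLF5 (ENSG00000102554, GRCh38 chromosome 13, 73054976 to 73077541, plus strand) had 366 and 357 CPM in the induced SOX9 libraries, against 356 and 371 CPM in the uninduced SOX9 libraries. It had 363 and 374 CPM in induced M303, 364 and 354 CPM in uninduced M303, 384 and 352 CPM in induced GFP, and 385 and 379 CPM in uninduced GFP. The induced and uninduced libraries of each line overlapped. The log2 fold change was -0.01 with SOX9 (95% CI -0.15 to 0.14), 0.04 with M303 (95% CI -0.10 to 0.18) and -0.05 with GFP (95% CI -0.20 to 0.09). None was called, with an edgeR adjusted p of 0.983 for SOX9 and 1.00 for the others, and the SOX9 interval excludes a change as large as that of KLF4. The highest library was 1.09 times the lowest, the narrowest range of the 10 members. Group means ran from 382 ± 4.29 CPM in uninduced GFP to 359 ± 6.97 CPM in uninduced M303 (SD, n = 2 each), and no comparison called a difference.

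**Figure D1:**
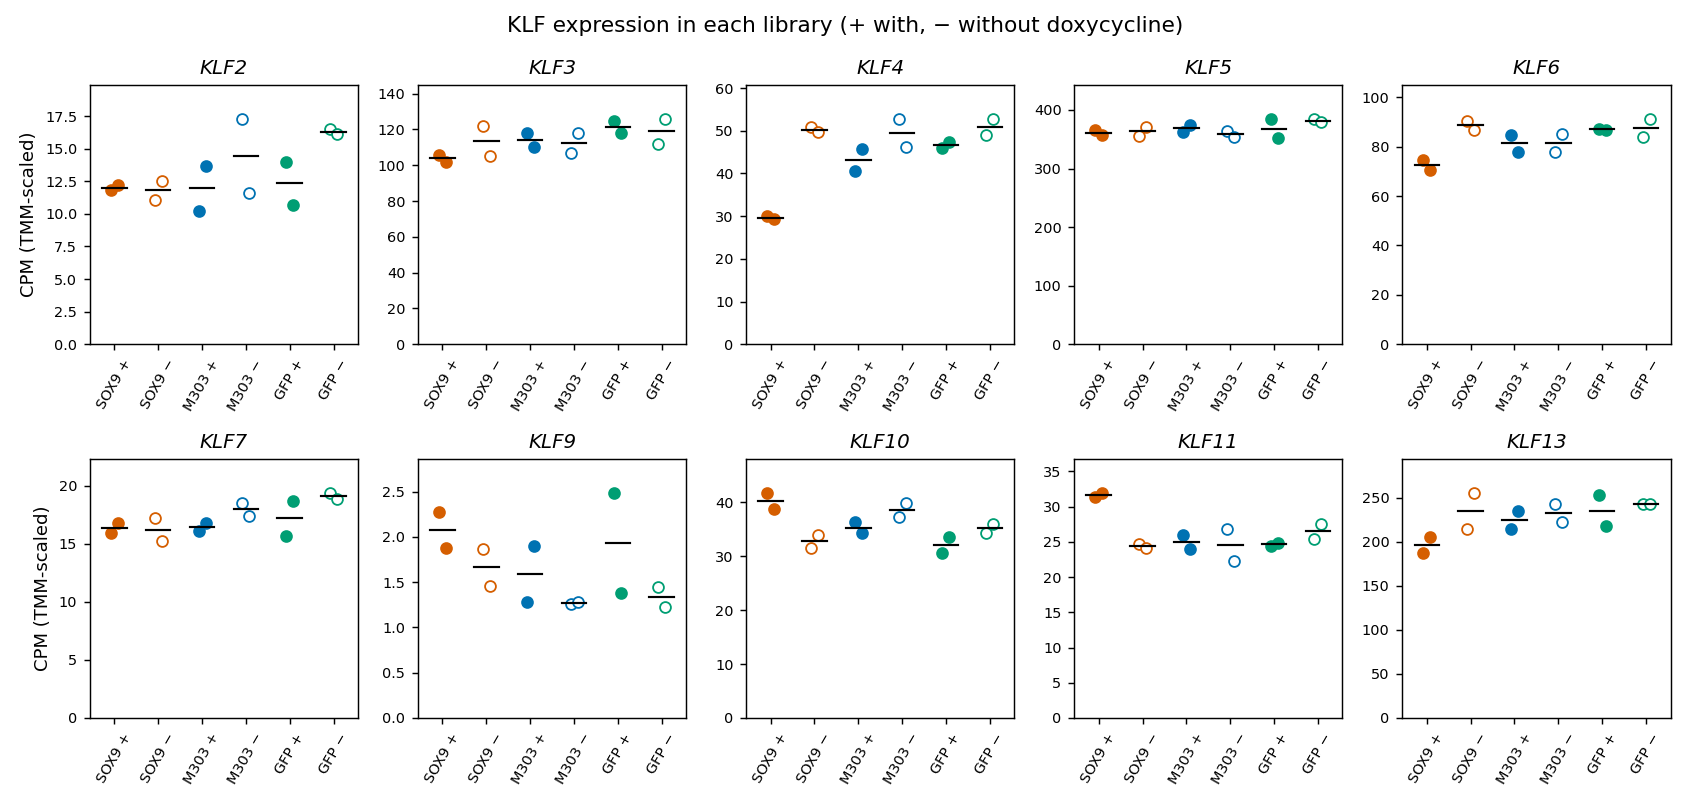
CPM of the 10 KLF genes, 1 panel each, in the 12 libraries; points are libraries, filled with and open without doxycycline, and bars are means of 2. The induced SOX9 libraries lie below all others for KLF4 (29.3 and 30.0 CPM) and inside the range of the others for KLF5 (357 and 366 CPM).

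KLF4 was next set against KLF5 within each library, per base of exon, a ratio in which library scaling cancels. The log2 fold changes of KLF5 were -0.01 with SOX9, 0.04 with M303 and -0.05 with GFP. The ratio therefore largely restates the KLF4 changes and is not separate evidence. KLF4 stood at 8.22% and 8.24% of KLF5 in the induced SOX9 libraries, against 14.3% and 13.5% in the uninduced SOX9 libraries. It stood at 11.2% and 12.3% in induced M303, 14.6% and 13.1% in uninduced M303, 12% and 13.5% in induced GFP, and 12.8% and 14% in uninduced GFP. With doxycycline the ratio of the SOX9 line differed by -0.75 on the log2 scale, which was larger than the pooled SD within groups of 0.0877. An exact permutation test of 2 against 2 libraries cannot go below p = 0.333, and gave that value (two-sided). The M303 line had a difference of -0.24 (exact permutation p = 0.333) and the GFP line one of -0.07 (exact permutation p = 0.667). The 2 induced SOX9 libraries were both at -3.60 on the log2 scale, and the other 10 ran from -3.15 to -2.78.

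**Figure D2:**
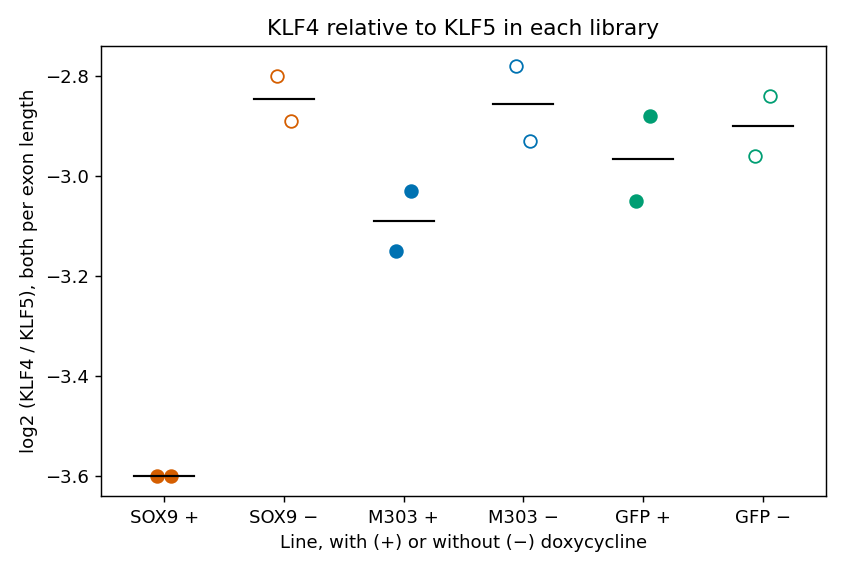
log2 ratio of KLF4 to KLF5, both per exon length, in each of the 12 libraries by line and doxycycline; bars are means of 2. The induced SOX9 libraries sit at -3.60, below the other 10 (-3.15 to -2.78), and the induced M303 libraries have the next lowest mean.

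KLF10 and KLF11 encode related repressors first known as TGF-beta inducible early genes. KLF11 (ENSG00000172059, chromosome 2, 10042849 to 10054836, plus strand) had 31.4 and 32.0 CPM in induced SOX9, against 24.7 and 24.1 CPM in uninduced SOX9, and 22.3 to 27.6 CPM over the 10 libraries other than induced SOX9. Both induced SOX9 libraries lay above all others, but the log2 fold change of 0.38 (SE 0.11) was not called (adjusted p = 0.0782). KLF10 (ENSG00000155090) had 41.8 and 38.7 CPM in induced SOX9, against 31.6 and 33.9 CPM in uninduced SOX9. Here the uninduced M303 libraries reached 39.9 CPM and so overlapped induced SOX9, and the log2 fold change of 0.30 (SE 0.10) was not called (adjusted p = 0.126). On M303 induction KLF10 and KLF11 had log2 fold changes of -0.13 and 0.03, and on GFP induction -0.13 and -0.10. The SOX9 change minus the GFP change was 0.43 for KLF10 (95% CI 0.14 to 0.73, adjusted p = 0.249) and 0.48 for KLF11 (95% CI 0.15 to 0.81, adjusted p = 0.267), and neither was called. Exons of KLF11 share 416 bases, 9.06% of their length, with a gene on the opposite strand that had 0 counts.

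KLF6 is a broadly expressed member that responds quickly to growth signals, and KLF13 is a repressor that recruits SIN3A. KLF6 (ENSG00000067082, chromosome 10, 3775996 to 3785281, minus strand) had 74.5 and 70.4 CPM in induced SOX9, against 90.3 and 86.9 CPM in uninduced SOX9 and 77.9 to 91.3 CPM over the 10 libraries other than induced SOX9. The induced SOX9 libraries were the lowest of the 12, and the log2 fold change of -0.29 (SE 0.08) was just short of a call (adjusted p = 0.0630). DESeq2 called KLF6 (-0.30, adjusted p = 0.0197). KLF13 (ENSG00000169926, chromosome 15, 31326835 to 31435665, plus strand) had 187 and 205 CPM in induced SOX9, against 214 and 256 CPM in uninduced SOX9. Its log2 fold change of -0.26 (SE 0.09) was not called (adjusted p = 0.156), and the uninduced replicates differed by more than the gap between the groups. KLF13 was called without replicate 1 of uninduced SOX9 (-0.39, adjusted p = 0.0234) and with no filter on low counts (-0.27, adjusted p = 0.0485). With M303 KLF6 and KLF13 had -0.01 and -0.05, and with GFP -0.01 and -0.04.

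The remaining 4 members are KLF2, known for resting endothelium and T cells, KLF3, a repressor that recruits CtBP, KLF7, known in neuron development, and KLF9, a gene induced by glucocorticoids. KLF3 had 106 and 102 CPM in induced SOX9, against 122 and 105 CPM in uninduced SOX9, with a log2 fold change of -0.12 (adjusted p = 0.619). KLF2 had 11.8 and 12.2 CPM in induced SOX9, against 11.1 and 12.5 CPM in uninduced SOX9, and KLF7 had 15.9 and 16.8 CPM in induced SOX9, against 17.2 and 15.2 CPM in uninduced SOX9. Their log2 fold changes were 0.02 (95% CI -0.37 to 0.41) and 0.01 (95% CI -0.26 to 0.28). KLF9 was the lowest member, at 2.27 and 1.88 CPM in induced SOX9, against 1.87 and 1.46 CPM in uninduced SOX9. Its counts per library ran from 42 to 112, and its 95% CI of -0.47 to 1.11 on the log2 scale leaves both directions within reach at this depth. KLF2 had 14 and 10.7 CPM in induced GFP, against 16.5 and 16.1 CPM in uninduced GFP. Its log2 fold change there was -0.40, with an unadjusted edgeR p of 0.0413 and an adjusted p of 1.00.

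**Figure D3:**
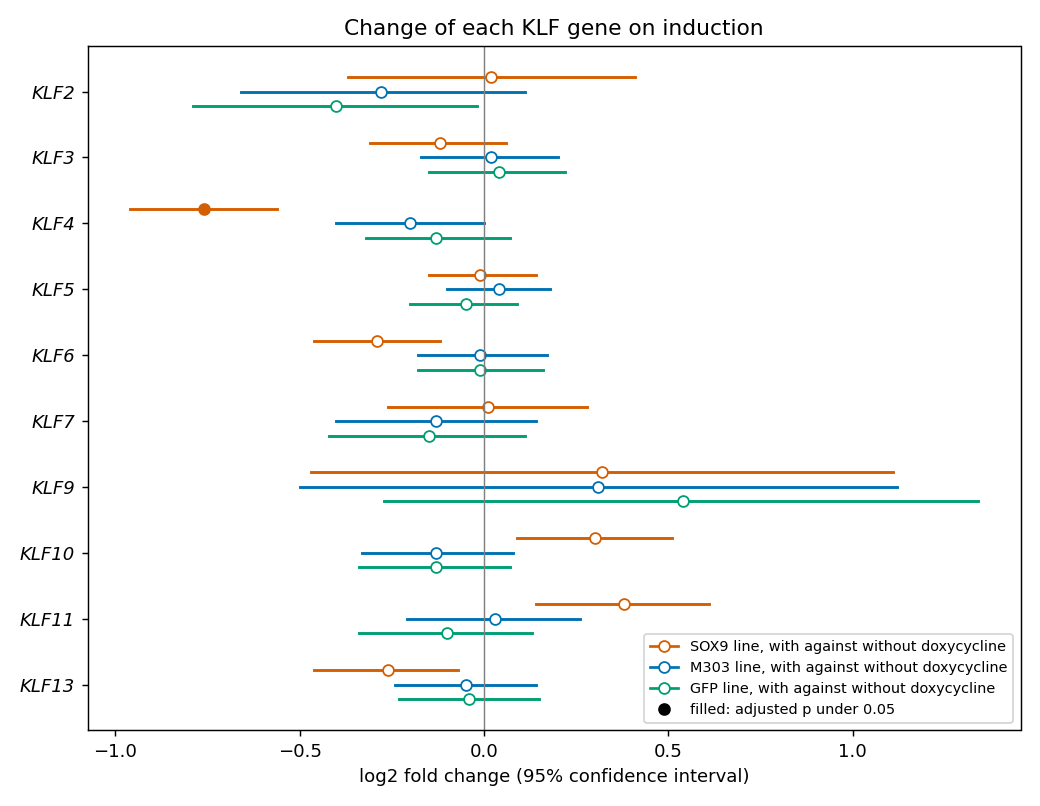
log2 fold change of each KLF gene with against without doxycycline in the SOX9, M303 and GFP lines, with 95% confidence intervals; filled points passed an adjusted p under 0.05. KLF4 in the SOX9 line (-0.76) is the only filled point, and the KLF5 intervals all span 0.

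Over the 10 members SOX9 induction called 0 higher and 1 lower, with a median log2 fold change of 0.00, against 0.01 over all genes tested. By fitted value 5 were above and 5 below 0. An unadjusted edgeR p under 0.05 was reached by 5 of the 10 (KLF4, KLF6, KLF10, KLF11 and KLF13), where 13.8% of all genes reached it. The members were chosen with earlier results of these data known, so such counts give no independent evidence about the family. The induced and uninduced libraries did not overlap for 6 members, where 44.7% of all genes did not overlap. M303 induction called 0 members by edgeR (0.00549% of all genes) and 0 by DESeq2, and 0 had an unadjusted p under 0.05 (3.63% of all genes). The 1 gene that edgeR called there was SOX9 itself, whose counts include the construct. GFP induction also called 0 members by edgeR (0% of all genes) and 0 by DESeq2, and KLF2 alone of the 10 had an unadjusted p under 0.05 (3.18% of all genes). The groups did not overlap for 3 members with M303 (33.8% of all genes) and for 5 with GFP (27.4% of all genes). The median log2 fold changes were -0.03 with M303 and -0.08 with GFP. For the difference between the SOX9 and GFP changes 4 members had an unadjusted p under 0.05, where 9.01% of all genes did, and for that between the SOX9 and M303 changes also 4, where 6.99% did. They were KLF4, KLF6, KLF10 and KLF11 in comparisons that share the 4 SOX9 libraries. For the difference between the M303 and GFP changes 0 members were called by edgeR or DESeq2 (0.00549% of all genes by edgeR), and 0 had an unadjusted p under 0.05 (3.94% of all genes). SOX9 was again the 1 gene that edgeR called.

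Between the uninduced lines 0 members were called by edgeR or by DESeq2. For uninduced SOX9 against uninduced GFP, where edgeR called 0% of all genes, KLF2 alone had an unadjusted p under 0.05 (4.75% of all genes). Its log2 fold change was -0.47, with an unadjusted edgeR p of 0.0208 and an adjusted p of 0.920. The groups did not overlap for 6 members, where 31.5% of all genes did not. For uninduced M303 against uninduced GFP, where 1 gene, or 0.00549% of all genes, was called, 0 members had an unadjusted p under 0.05 (6.09% of all genes). The groups did not overlap for 4 members, where 37.4% of all genes did not. Both uninduced comparisons and the GFP induction share the uninduced GFP libraries, in which KLF2 was at 16.5 and 16.1 CPM. In uninduced M303 its replicates stood apart, at 17.3 and 11.6 CPM.

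Per length of exon, KLF5 was the most abundant member, with a median of 99.2 CPM per kb over the 12 libraries. KLF13 (24.3 CPM per kb), KLF3 (17), KLF6 (13.8) and KLF4 (12.8) followed. KLF10 (9.21), KLF11 (5.48), KLF2 (4.37), KLF7 (1.84) and KLF9 (0.281) had lower medians. KLF4 averaged 8.09 ± 0.126 CPM per kb in induced SOX9 (SD, n = 2), below KLF10 at 10.5 ± 0.579 CPM per kb there. In uninduced SOX9 KLF4, at 13.7 ± 0.235 CPM per kb, was above KLF10, at 8.57 ± 0.439 CPM per kb (SD, n = 2 each). Over the 12 libraries the ranges of neighbours in this order overlapped for KLF6 and KLF4, for KLF4 and KLF10, and for KLF11 and KLF2. KLF6 ran from 11.5 to 14.9, KLF4 from 8 to 14.4 and KLF10 from 7.99 to 10.9 CPM per kb, and KLF11 from 4.85 to 6.97 and KLF2 from 3.61 to 6.13 CPM per kb. The other neighbours did not overlap.

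The other KLF genes and the SP genes, which share the DNA-binding fold, gave 0 calls by edgeR and 0 by DESeq2 on SOX9, M303 or GFP induction, with 5 of 8 and 7 of 9 tested. On SOX9 induction 1 of the KLF genes and 2 of the SP genes had an unadjusted p under 0.05, with M303 0 and 1, and with GFP 0 and 0. Over all genes tested 13.8% did with SOX9, 3.63% with M303 and 3.18% with GFP. The medians on SOX9 induction were 0.64 and 0.08. The 0.64 is the value of KLF8, with 2.07 and 1.95 CPM in induced SOX9, against 1.28 and 1.30 CPM in uninduced SOX9. Above it were KLF1 (1.96, SE 1.58) and KLF12 (0.75, SE 0.61), which reached at most 0.687 and 1.22 CPM in any library. The median thus rests on genes with low levels, none of which was called. KLF16 had 61.5 and 59.0 CPM in induced SOX9, against 62.4 and 84.8 CPM in uninduced SOX9 (log2 fold change -0.29, adjusted p = 0.285). KLF15 had 8.86 and 8.70 CPM in induced SOX9, against 7.33 and 6.93 CPM in uninduced SOX9 (0.30, adjusted p = 0.513). SP5, known as a WNT target, had 1.01 and 2.07 CPM in induced SOX9, against 0.428 and 0.450 CPM in uninduced SOX9 (1.79, SE 0.65, adjusted p = 0.181). SP8 had 6.07 and 6.53 CPM in induced SOX9, against 3.61 and 4.22 CPM in uninduced SOX9 (0.68, adjusted p = 0.129). SP1 and SP3, the broadly expressed SP factors, had log2 fold changes of -0.03 and 0.08. The KLF and SP genes in this paragraph were named after their values were seen. Of 10 corepressors and coactivators that KLF proteins use (SIN3A, CTBP1, EP300 and others), and of 5 genes of KLF protein turnover (such as FBXW7 and WWP1), 0 were called on SOX9 induction by edgeR or DESeq2 and 0 had an unadjusted p under 0.05, with medians of 0.07 and 0.09.

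Genes linked to KLF4 in differentiated epithelium were lower on SOX9 induction in 6 of 11 tested (of 12 listed), and 0 were higher, where 1.16% of all genes tested were called lower and 1.81% higher. The median log2 fold change of the list was -0.28, against 0.01 over all genes tested. VIL1, whose call was lost in the alternatives given above, is one of the 6. MUC2, the main goblet cell mucin, had 20.7 and 24.8 CPM in induced SOX9, against 62.7 and 69.3 CPM in uninduced SOX9 (log2 fold change -1.54, adjusted p = 1.53e-06). The intestinal galectin gene LGALS4 stood at 752 and 758 CPM in induced SOX9, against 1240 and 1170 CPM in uninduced SOX9 (-0.67, adjusted p = 1.80e-06). FABP2, the intestinal fatty acid binding protein, and KRT20, a keratin of differentiated colonocytes, also fell, with -2.00 (adjusted p = 3.12e-05) and -1.60 (adjusted p = 6.26e-05). TFF3 fell as well (-0.80, adjusted p = 0.0339). KRT19 (-0.27), CDKN1A (-0.16), CDKN1B (0.18), CA2 (0.23) and ALPI (0.62, at most 0.842 CPM) were not called. Of 12 genes linked to KLF5, crypts or cell division, 3 rose and 0 fell, against the same 1.81% and 1.16% of all genes, with a median of 0.19. These were SMOC2, which encodes a matrix protein known from stem cells of the crypt (1.31, adjusted p = 1.45e-08), OLFM4, a secreted stem cell glycoprotein (0.73, adjusted p = 1.18e-05), and ETS2, a transcription factor (0.40, adjusted p = 5.30e-04). LGR5 (0.25), ASCL2 (0.22), CDK1 (0.16), MKI67 (0.04) and PDGFA (0.46, at most 0.533 CPM) were not called. Neither were EGFR (-0.01), CCNB1 (-0.02), CCND1 (-0.16) and MYC (-0.17), so the calls do not extend to the cell division genes listed. OLFM4 also differed without doxycycline, being higher in uninduced M303 than in uninduced GFP by 0.66 (edgeR adjusted p = 0.00412), the 1 gene of 18219 called in that comparison. This call was lost without replicate 2 of uninduced GFP, and without either library of uninduced M303. On M303 induction edgeR called 0 genes of either list, with 3 and 1 at an unadjusted p under 0.05 (3.63% of all genes). DESeq2 called 0 and 1. The 3 genes of the KLF4 list at that unadjusted edgeR p were KRT20 (-0.52), TFF3 (-0.52) and LGALS4 (-0.14). SMOC2 had a log2 fold change of 0.50 on M303 induction (edgeR adjusted p = 0.177). On GFP induction both tools called 0 of either list, with 1 and 0 at an unadjusted p under 0.05 (3.18% of all genes). The lists were drawn up with results from these libraries known and give no independent evidence of direction.

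**Figure D4:**
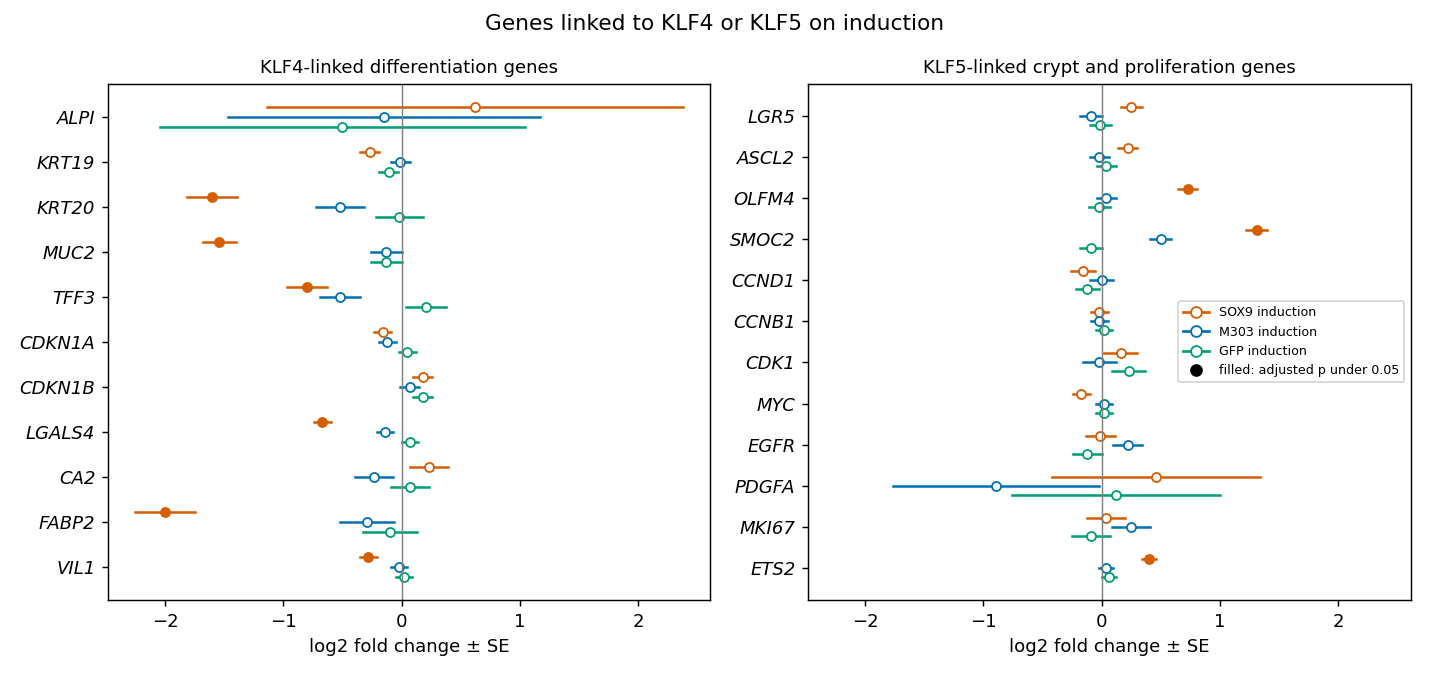
log2 fold change ± SE of the genes linked to KLF4 (left) and to KLF5 or crypt cells (right) on induction of SOX9, M303 or GFP; filled points passed an adjusted p under 0.05. On the left 6 genes are filled below 0 and on the right 3 are filled above 0, all for SOX9.

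Genes of pathways linked to single members were counted next. Of 9 TGF-beta and SMAD genes 3 rose on SOX9 induction and 0 fell, where 1.81% of all genes were called higher and 1.16% lower, with a median of 0.25. They were the feedback inhibitor SMAD7 (0.45, adjusted p = 0.0262), the SMAD corepressor SKIL (0.54, adjusted p = 0.0112) and the corepressor TGIF1 (0.35, adjusted p = 0.0411). For the SOX9 change minus the GFP change, and for the SOX9 change minus the M303 change, 0 of the 9 were called by edgeR or DESeq2. In each, 3 had an unadjusted p under 0.05, where 9.01% and 6.99% of all genes did. Of 13 immediate early genes 1 rose, the phosphatase gene DUSP6 (0.47, adjusted p = 0.0108), with a median of 0.00. All 4 calls were lost when replicate 2 of uninduced SOX9 was left out, with adjusted p of 0.0600 for SMAD7, 0.134 for SKIL, 0.267 for TGIF1 and 0.174 for DUSP6. They were lost as well when replicate 2 of induced SOX9 was left out, with 0.544, 0.178, 0.190 and 0.263 in the same order. Leaving out replicate 1 of uninduced SOX9 ended those of SMAD7 (0.143) and TGIF1 (0.0541), and leaving out replicate 1 of induced SOX9 that of TGIF1 (0.322). TGIF1 also lost its call with the replicate number as a block (0.0677) and in a non-robust fit (0.0597). Of 5 ERK5 and MEF2 genes, known to drive KLF2, and of 8 glucocorticoid and clock genes tested (of 10 listed), known around KLF9, 0 were called by edgeR or DESeq2. Of these lists 1 and 2 had an unadjusted p under 0.05 (13.8% of all genes), with medians of 0.07 and -0.05.

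The genes whose profile over the 12 libraries lay nearest to KLF4, by root mean square distance of centred log2 CPM among 11764 genes, were ANKS4B, AGR2 and LINC02672. They were chosen for this likeness, so their values are a description with no test. ANKS4B, a brush border adhesion protein, lay at a distance of 0.077, against a spread of 0.277 for KLF4 itself. It averaged 23.2 CPM in induced SOX9, against 38.3 CPM in uninduced SOX9. AGR2, a protein disulfide isomerase of goblet cells, had a distance of 0.083 and averaged 625 CPM in induced SOX9 and 1130 CPM in uninduced SOX9. LINC02672, a noncoding RNA, had a distance of 0.086 and averaged 11.2 CPM in induced SOX9 and 20.4 CPM in uninduced SOX9. In the 10 libraries other than induced SOX9 these genes ran from 36.1 to 41.6, from 920 to 1170 and from 16.4 to 21.3 CPM. Around KLF5 the nearest were RFC2 (0.020), GNB1 (0.022) and CTNNA1 (0.025). The spread of KLF5 itself was 0.043, against 0.099 to 0.330 for the other 9 members.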

How the data were processed

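Raw read counts per gene were deposited by the authors. Alignment used STAR 2.7.0a and the hg38 build, per the submitters' processing notes. Per the file headers, counting used featureCounts 2.0.1 with Ensembl release 101 and no paired-end, strand or multi-mapping option. If the reads were paired, mates were thus counted singly, and a fragment could be counted more than once. Overlapping genes on opposite strands were not separated. By the program's default, reads assigned to several genes or places were left out. Exon overlaps were found for KLF3 (3.91% of its exon length), KLF7 (0.723%) and KLF11 (9.06%). Symbols matched 42020 genes (69.3%).

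The tests used edgeR 4.0.16 under R 4.3.3 (robust quasi-likelihood, TMM factors 0.981 to 1.02, filterByExpr, 12 libraries, 1 mean per group) in 8 comparisons, with Benjamini-Hochberg adjustment over 18219 genes. Nothing states that duplicates were separate cultures, so p-values measure the spread between libraries, which may be technical. No duplicates matched within counting noise. In simulated data with a log2 change of 0.75 in 100 genes on SOX9 induction, 96 were called. Those genes were drawn from well-expressed ones, and each had the spread typical of its level. The 96 therefore does not cover KLF9, smaller changes or genes with a larger spread. Alternatives were RLE factors, no filter, DESeq2 1.42.0, a non-robust fit, a replicate block and leaving out each library. The rule named all members, called genes of fixed lists (at most 4 per list) and the 3 nearest profiles to KLF4 and KLF5. TFF3 and the uncalled genes of the KLF4 and KLF5 lists were named outside this rule. Members and lists were chosen with earlier results of these data known. Promoter windows are from RefSeq.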

Additional observations from a re-analysis of the deposited data

Results flagged for a closer look

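KLF4 changed differently on SOX9 than on GFP induction, with a difference of -0.64 on the log2 scale (SE 0.14, edgeR adjusted p = 0.0212). KLF4 was lower with doxycycline in 2 of 2 libraries of the SOX9 line and in 2 of 2 of the GFP line. On GFP induction, however, the groups did not overlap for 27.4% of all genes. The KLF4 change in the GFP line was -0.13, with a confidence interval of -0.32 to 0.07 that includes no change. Whether the 2 lines share a direction is therefore not established. The call was lost without any 1 of 5 libraries (adjusted p up to 0.120).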

How the results depend on the processing

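KLF4 kept its direction and its call on SOX9 induction in all 17 alternatives, with log2 fold changes of -0.78 to -0.75 and adjusted p up to 0.00134. Of 1360 recomputed member values 5 lost a call, all of them KLF4 for SOX9 minus GFP induction, 5 gained one and 0 reversed. A further 73 uncalled values changed sign. With no low count filter 2 members, KLF4 and KLF13, were called for SOX9 induction and 1, KLF4, for SOX9 minus M303 induction. DESeq2 gave 2 others in part, KLF4 and KLF6, for SOX9 induction and 1, KLF4, for SOX9 minus M303 induction. With no filter the genes called were 9 (M303 induction), 4 (GFP induction), 270 (SOX9 minus GFP), 147 (SOX9 minus M303), 11 (M303 minus GFP), 17 (uninduced SOX9) and 22 (uninduced M303). DESeq2 called 2 genes for M303 induction, 2 for GFP induction and 2 for uninduced SOX9. The cause was not tested. On leaving out 1 library members called ran from 1 to 2 for SOX9 induction and from 0 to 1 for SOX9 minus GFP. Genes called ran from 231 to 675 (SOX9 induction, with 231 and 270 without replicates 2 and 1 of induced SOX9 and 301 without replicate 2 of uninduced SOX9), 1 to 2 (M303 induction), 0 to 9 (GFP induction), 95 to 229 (SOX9 minus GFP, lowest without replicate 2 of induced SOX9), 57 to 107 (SOX9 minus M303), 1 to 12 (M303 minus GFP), 0 to 39 (uninduced SOX9) and 0 to 56 (uninduced M303), the last 2 highest without replicate 1 of uninduced GFP. The log2 KLF4 to KLF5 difference ran from -0.80 to -0.71 with SOX9, -0.31 to -0.16 with M303, -0.16 to 0.02 with GFP and -0.70 to -0.65 for induced SOX9 against the rest. Of 340 recomputed values of 20 other named genes 24 lost a call. With the replicate number as a block 452 genes were called for SOX9 induction (541 without it), KLF4 had an adjusted p of 1.32e-04 no member's call changed, and those of VIL1 and TGIF1 were lost. Differences of 1-numbered and 2-numbered libraries correlated between groups by -0.36 to 0.28, so the numbers were not taken to pair the libraries. KLF9, at 42 to 112 counts, is limited by depth.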
